A study of Homo sapiens with 12 samples.

Results

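To ask how the transcripts of interferons and of their receptors stood in cells with and without TIMP1 (tissue inhibitor of metalloproteinases 1), 10 genes were followed across 4 lines of MIA PaCa-2, a human pancreatic carcinoma cell line. The genes were selected by symbol from the 63086 genes of the deposited table. They are 4 ligands (IFNB1, IFNL1, IFNL2 and IFNL3) and the 6 subunits of the 3 interferon receptors (IFNAR1, IFNAR2, IFNLR1, IL10RB, IFNGR1 and IFNGR2). All lines were grown in RPMI 1640 with fetal calf serum, with no interferon or other agent named in the labels, and each line had 3 libraries of bulk RNA. WT was the unmanipulated line. CRISPR Control had passed through CRISPR-Cas9 editing and is labelled as WT with a silent point mutation, and changes elsewhere in its genome were not examined here. TIMP1 KO 1 and TIMP1 KO 2 (KO 1 and KO 2 below) carried knockouts in exon 4 of TIMP1, made with guide RNAs that target different regions of that exon. The pair of KO lines is termed deficient, and the pair of WT and CRISPR Control competent. Each edited line is a single line, so a feature of the clone and an effect of the edit cannot be told apart within it. The labels name the libraries of a line as biological replicates of that line, and the p-values below measure the spread between such libraries only.

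Interferons are secreted proteins through which a cell that senses foreign or misplaced nucleic acid alerts itself and its neighbours. Type I interferons, which include interferon beta (IFNB1) and the IFNA family, bind a receptor built from IFNAR1 and IFNAR2. Type III or lambda interferons (IFNL1, IFNL2, IFNL3 and IFNL4) bind IFNLR1 paired with IL10RB and act mainly on epithelial cells. Type II interferon (IFNG), a product of lymphocytes, binds IFNGR1 paired with IFNGR2. All 3 receptors signal through Janus kinases, and the type I and type III receptors share a transcription factor complex that holds STAT2 and IRF9.

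Levels are normalised counts, that is, the reads of a gene scaled by the size factor of its library. The libraries held 26908701 to 36093563 reads in genes. TIMP1, the targeted gene, had mean normalised counts of 3553 ± 274 (SD, n = 3 as for all lines) in WT, 2690.4 ± 357 in the CRISPR Control line, 1599.6 ± 32.8 in KO 1 and 1161 ± 28.8 in KO 2. The carcinoma markers KRT8, KRT18, KRT7, KRT19, EPCAM and VIM were read in every line. Their summed normalised count was 106107 to 134336 in CRISPR Control against 250178 to 315230 in the other lines, so the control line stood apart. The leukocyte and dendritic cell markers are given beside the ligands.

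The bases upstream of the ligand genes are shown first, because transcription of interferon genes is known to be switched on there by interferon regulatory factors (IRFs) and NF-kB. Each run is the 250 bases before the gene's start, 5′ to 3′ on the gene's own strand, from RefSeq on GRCh38.p14. Capitals mark the letters AANNGAAA, the core that IRFs are known to bind, wherever they were found on either strand. Neighbouring matches can overlap. IFNB1 is read from chr9:21077943-21078192 (minus strand), IFNL1 from chr19:39296157-39296406 (plus), IFNL2 from chr19:39268146-39268395 (plus) and IFNL3 from chr19:39245251-39245500 (minus).
IFNB1: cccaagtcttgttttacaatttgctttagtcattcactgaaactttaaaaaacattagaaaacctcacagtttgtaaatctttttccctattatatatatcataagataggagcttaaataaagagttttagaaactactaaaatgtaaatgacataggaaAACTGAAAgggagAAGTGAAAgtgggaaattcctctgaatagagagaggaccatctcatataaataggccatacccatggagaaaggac
IFNL1: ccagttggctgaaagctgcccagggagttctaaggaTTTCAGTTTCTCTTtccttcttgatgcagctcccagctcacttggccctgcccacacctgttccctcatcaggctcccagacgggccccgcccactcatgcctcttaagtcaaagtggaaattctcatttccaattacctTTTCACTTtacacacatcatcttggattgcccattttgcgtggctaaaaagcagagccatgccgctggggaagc
IFNL2: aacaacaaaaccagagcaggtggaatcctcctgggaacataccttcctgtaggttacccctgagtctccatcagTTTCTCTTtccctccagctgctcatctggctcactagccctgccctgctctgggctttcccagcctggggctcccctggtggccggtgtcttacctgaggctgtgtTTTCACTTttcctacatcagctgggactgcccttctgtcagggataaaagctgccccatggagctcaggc
IFNL3: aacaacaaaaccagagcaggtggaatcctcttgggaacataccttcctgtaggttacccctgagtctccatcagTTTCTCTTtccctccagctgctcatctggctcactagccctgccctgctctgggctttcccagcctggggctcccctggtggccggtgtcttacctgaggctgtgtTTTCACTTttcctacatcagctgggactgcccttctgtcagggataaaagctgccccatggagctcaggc

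Of the 4 ligand windows, each held the IRF core, with 2 matches in IFNB1, 3 in IFNL1, 2 in IFNL2 and 2 in IFNL3. Among 34941 windows of the same length before annotated starts, 20.3% held it. The windows of IFNL2 and IFNL3 differed at 1 of 250 bases. Of the receptor genes, 5 had a window in the table, and none of the 5 held an IRF core. IFNAR2 had no window there. A match is a stretch of letters and was not tested as a binding site.

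The ligand transcripts were read mostly in KO 2. Counted over the 3 libraries of a line, the 4 ligands together had 5 reads in WT and 24 in CRISPR Control, against 44 in KO 1 and 1116 in KO 2. Of the 1116 reads in KO 2, 1075 (96.3%) came from the lambda genes and 41 from IFNB1. The ligands were chosen with these counts in view, so their values are a description and carry no p-value. In bulk RNA, more cells that express a gene and more RNA of it per cell cannot be told apart.

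**Figure D1:**
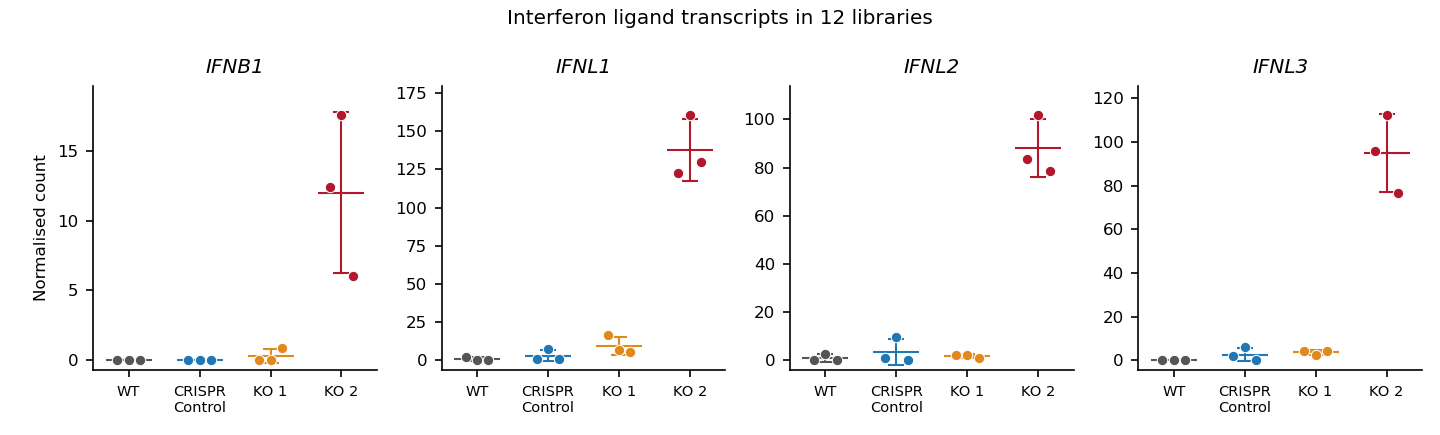
Normalised counts of the 4 ligand genes (linear axis that includes 0) in the 12 libraries. Points are libraries, horizontal lines are line means and bars are SD (n = 3). For each ligand the 3 KO 2 libraries lie above the other 9, with KO 2 ranges of 6.05 to 17.5 for IFNB1, 123 to 160.4 for IFNL1, 78.7 to 102 for IFNL2 and 76.7 to 112 for IFNL3.

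IFNL1 (ENSG00000182393.3), the lambda gene with the most reads, lies on chromosome 19 from 39296407 to 39298673 on the plus strand. Its normalised counts were 2.26, 0 and 0 in WT replicates 1 to 3, 0.864, 7.12 and 1.10 in CRISPR Control, 16.2, 6.75 and 5.30 in KO 1, and 123, 160.4 and 130.2 in KO 2. All KO 2 libraries were higher than all others, and all KO 1 libraries were higher than all WT libraries, while KO 1 and CRISPR Control overlapped. The ratio of summed reads, corrected for library size, was 209 for KO 2 against WT (95% counting interval 57.5 to 1731, with 2 reads in WT). It was 15.0 for KO 2 against KO 1 (interval 10.2 to 23.1) and 13.9 for KO 1 against WT (interval 3.49 to 121). These intervals, here and below, cover counting error of the pooled reads only and not the spread between libraries. Copies made by PCR are not independent molecules, which the intervals also leave out.

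IFNL2 (ENSG00000183709.8) and IFNL3 (ENSG00000197110.10) are close copies on opposite strands of the same stretch of chromosome 19, from 39268396 to 39270188 (plus strand) and from 39243455 to 39245250 (minus strand). Of the 150-base stretches of the IFNL2 transcripts, 5.11% were also in IFNL3 letter for letter, so the split of reads between the 2 genes is uncertain by a small share. No stretch of that length was shared with IFNL1. IFNL2 had normalised counts of 0, 2.73 and 0 in WT, 0.864, 9.49 and 0 in CRISPR Control, 2.16, 2.25 and 0.883 in KO 1, and 83.7, 102 and 78.7 in KO 2. KO 2 stood alone and the other 3 lines overlapped one another. Its ratio was 89.3 for KO 2 against WT (interval 30.3 to 436, with 3 reads in WT), 52.1 against KO 1 (interval 22.1 to 162) and 1.72 for KO 1 against WT (interval 0.334 to 11.05).

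IFNL3 had no read in WT and normalised counts of 1.73, 5.93 and 0 in CRISPR Control, 4.32, 2.25 and 4.42 in KO 1, and 96.1, 112 and 76.7 in KO 2. KO 2 was again above all other libraries, and KO 1 was above WT but overlapped CRISPR Control. With no WT read to divide by, the ratio to WT had no upper end. The lower end of its exact 95% counting interval was 78.4 for KO 2 and 2.58 for KO 1. Against a floor of 3 reads over the WT libraries the ratios were 96.9 and 3.77. KO 2 was 25.7 times KO 1 (interval 14.2 to 51.9).

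IFNB1 (ENSG00000171855.7), a gene of a single exon on chromosome 9 from 21077104 to 21077942 on the minus strand, encodes interferon beta. It had no read in the 6 competent libraries, 1 read in KO 1 replicate 3, and 15, 20 and 6 reads in KO 2 (normalised counts 12.4, 17.5 and 6.05). The KO 2 libraries did not overlap the others, but they differed among themselves, with a mean of 12.005 ± 5.75 (SD, n = 3). The lower end of the counting interval was 9.65 for KO 2 against WT, and the KO 2 level was 12.4 times the floor of 3 reads. Against the 1 read of KO 1 the ratio was 36.2 (interval 6.14 to 1464). The mean over all 12 libraries, 3.07, was under the minimum of 10 for the test across genes, so IFNB1 was not tested.

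Per kilobase of exon, the ligand means in KO 2 ran from 178 normalised counts for IFNL1 through 96.0 for IFNL3 and 92.6 for IFNL2 to 14.3 for IFNB1. The KO 2 libraries of IFNL2 and IFNL3 overlapped. In CRISPR Control 19 of the 24 ligand reads came from replicate 2, so that line's means rest on 1 library. In KO 1 the 3 libraries held 21, 10 and 13 ligand reads. In KO 2 they held 380, 447 and 289.

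The other interferon genes had few or no reads assigned. Stretches shared between IFNA genes were not examined, so reads that match several of them may not have been assigned. Of 18 further ligands, 12 had no read in any library, among them IFNG, the ligand of the IFNGR1 and IFNGR2 receptor, and IFNK. IFNA1, IFNA4 and IFNA14 had 1 read each in the whole series, and IFNW1 had 3 reads, all in WT replicate 3. IFNE, a type I interferon known from epithelia, had 4 reads in each WT library, 7, 7 and 5 in CRISPR Control, 0, 2 and 3 in KO 1, and 15, 8 and 9 in KO 2. KO 2 was thus 2.42 times WT (interval 1.21 to 5.17) and 5.65 times KO 1 (interval 2.18 to 18.6). IFNL4, the lambda gene between IFNL3 and IFNL2, had no read in the competent lines. It had 4 reads in KO 1, all in replicate 3, and 9, 8 and 13 in KO 2. The lower end of the counting interval was 6.94 for KO 2 against WT, and the KO 2 level was 9.08 times the floor.

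Markers of leukocytes and dendritic cells, which are strong producers of interferon in tissues, moved in part with the ligands. The summed normalised count of 10 such markers was 55.5 to 72.4 in WT, 51.6 to 59.3 in CRISPR Control, 111 to 134 in KO 1 and 239 to 287 in KO 2. CD14 (mean 36.2 in WT and 161 in KO 2) and ITGAM (18.8 and 91.7) made up most of it, and their part in the ligand counts was not tested. In KO 2 the defining markers CLEC4C and LILRA4 had no read, and PTPRC, the common leukocyte antigen, reached at most 7.46. IL3RA had no read in any library. It is annotated at the same coordinates on chromosomes X and Y, so reads of it may not have been assigned. The sum over 7 stromal and endothelial markers was 324 to 389 in KO 2 and at most 100.2 in the other lines, and its part was not tested either. PDGFRA was at 283 ± 18.5 in KO 2. DCN had no read in WT, KO 1 or KO 2. In KO 2 replicates 1 to 3, LUM had 2, 6 and 0 reads and PECAM1 had 14, 12 and 17. VWF had 13, 10 and 14 reads there, and CDH5 had 0, 2 and 1.

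Levels of the receptor subunits differed far less between lines than those of the ligands. The ligands had been chosen with their counts in view, so this difference is a description only. Per kilobase of exon, IFNGR2 was highest and IL10RB lowest in every line, in the order IFNGR2, IFNGR1, IFNAR1, IFNLR1, IFNAR2, IL10RB. In WT the values per kilobase were 1063, 278, 125, 23.4, 7.21 and 2.69 normalised counts. The order was the same with the longest transcript or the canonical transcript as the length. The lowest and highest line means of a subunit lay 0.36 (IFNAR1) to 1.45 (IFNGR2) apart on the log2 scale, against 5.83 to 6.57 for the lambda genes.

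**Figure D2:**
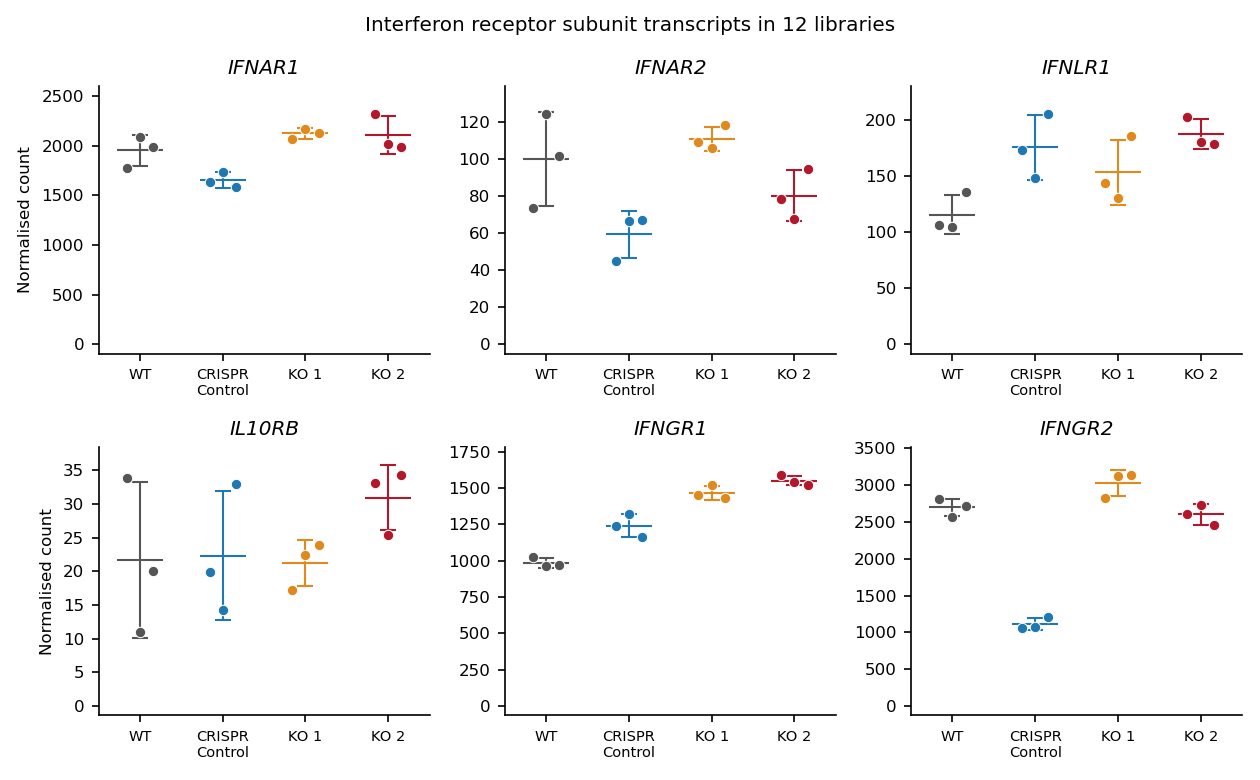
Normalised counts of the 6 receptor subunits (linear axes that include 0) in the 12 libraries. Points are libraries, horizontal lines are line means and bars are SD (n = 3). The 3 CRISPR Control libraries of IFNGR2 lie between 1052 and 1209, below the other 9, and the 3 WT libraries of IFNGR1 lie below the other 9.

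The 6 subunits are all those of the 3 receptors, and all passed the minimum, so adjusted p-values are given for them. They come from limma fitted on log2(normalised count + 1) across 15987 genes, with the Benjamini-Hochberg method and a threshold of 0.05. Of the 10 members, 9 were tested. IFNL1, IFNL2 and IFNL3 passed the minimum only through KO 2, so nothing is read from counts of members that include them. For KO 1 against WT, 3 of the 9 were called, against 35.5% of all genes tested. For KO 2 against WT 5 were called (55% of all genes), and for CRISPR Control against WT 5 (53.4%). Against CRISPR Control, 5 were called in KO 1 (63% of all genes) and 6 in KO 2 (67.7%). For KO 2 against KO 1 4 were called (38.2%), and for deficient against competent lines 6 (65.9%). Of the 6 subunits alone, 1 was higher than in WT in KO 1, 2 were higher in KO 2, and in CRISPR Control 2 were higher and 3 lower. The share of subunits called was above that of all genes in CRISPR Control against WT and in KO 1 against CRISPR Control and below it in the other comparisons.

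The type I receptor was lowest in CRISPR Control. IFNAR1 (chromosome 21, 33324387 to 33359864, plus strand), its low-affinity subunit, had normalised counts of 1779, 2091 and 1987 in WT, 1637, 1736 and 1579 in CRISPR Control, 2066, 2169 and 2129.8 in KO 1, and 2321, 2018 and 1982 in KO 2. Every CRISPR Control library lay below all others and the other 3 lines overlapped. The log2 fold change of CRISPR Control against WT was -0.24 (SE 0.08, limma adjusted p 0.0179). That call was lost without WT replicate 2 (adjusted p 0.0893), WT replicate 3 (0.0613) or CRISPR Control replicate 3 (0.0574). KO 1 (0.12, adjusted p 0.257) and KO 2 (0.11, adjusted p 0.264) did not pass against WT, and both were higher than CRISPR Control, by 0.36 (adjusted p 0.000702) and 0.35 (adjusted p 0.000859).

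IFNAR2 (chromosome 21, 33205282 to 33265675, plus strand), the high-affinity subunit, had 73.6, 125 and 102 in WT, 44.9, 66.4 and 67.0 in CRISPR Control, 109, 106 and 118 in KO 1, and 78.7, 67.5 and 94.8 in KO 2. CRISPR Control did not overlap any other line. Its log2 fold change against WT was -0.73 (SE 0.21, limma adjusted p 0.00668), and KO 1 was above it by 0.91 (adjusted p 0.000937). In the order CRISPR Control, KO 2, WT, KO 1, no neighbouring lines differed past the threshold (adjusted p 0.0723, 0.248 and 0.541). KO 2 against CRISPR Control passed with equal library totals (0.55, adjusted p 0.0272) and without KO 2 replicate 2 (0.55, adjusted p 0.0478), and KO 2 against WT (-0.62, adjusted p 0.0201) and against KO 1 (-0.74, adjusted p 0.0105) with quantile normalisation. KO 2 against KO 1 also passed when only the lines compared were fitted (-0.47, adjusted p 0.0406). Exons of the readthrough gene IFNAR2-IL10RB share 95.6% of their bases with IFNAR2 or IL10RB, and reads in shared exons can be lost to both. The readthrough gene itself had 1 read in KO 1 and 5 in KO 2.

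The lambda receptor differed from WT in its specific chain. IFNLR1 (chromosome 1, 24154168 to 24187959, minus strand), which binds lambda interferons only, had 106, 105 and 135 in WT, 173, 148 and 205.5 in CRISPR Control, 144, 131 and 186 in KO 1, and 203, 181 and 179 in KO 2. All CRISPR Control and KO 2 libraries were above WT, and KO 1 overlapped it. The log2 fold change against WT in KO 2 was 0.70 (SE 0.16, limma adjusted p 0.00126). In CRISPR Control it was 0.60 (SE 0.16, adjusted p 0.00465), and in KO 1 it was 0.40 (SE 0.16, adjusted p 0.0633). KO 1 passed without WT replicate 3 (0.52, adjusted p 0.0364), without KO 1 replicate 2 (0.51, adjusted p 0.0402) and without CRISPR Control replicate 2 (adjusted p 0.0492). KO 2 was 0.10 above CRISPR Control (adjusted p 0.582) and 0.30 above KO 1 (adjusted p 0.155).

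IL10RB (chromosome 21, 33266367 to 33311420, plus strand), the chain that the lambda receptor shares with the receptors of interleukin 10 and interleukin 22, had the fewest reads of the subunits. Its normalised counts were 34.0, 10.9 and 20.003 in WT, 19.9, 14.2 and 33.0 in CRISPR Control, 17.3, 22.5 and 23.9 in KO 1, and 33.1, 25.4 and 34.3 in KO 2. Spread within WT was as wide as that over all lines apart from KO 2 replicate 3. No comparison passed, with adjusted p from 0.162 (KO 2 against WT, 0.62, SE 0.37) to 0.992, and at 12 to 40 reads a library smaller differences were not detectable. KO 2 against WT passed without WT replicate 1 (1.00, adjusted p 0.034).

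The type II receptor held both the subunit that rose in each edited line and the subunit with the largest difference. IFNGR1 (chromosome 6, 137197483 to 137219449, minus strand), the ligand-binding chain, had 1027, 961 and 972 in WT, 1239.5, 1320.1 and 1166 in CRISPR Control, 1449.8, 1520.1 and 1433 in KO 1, and 1589.6, 1544 and 1524 in KO 2. WT was below every other library, and CRISPR Control was below both KO lines. The log2 fold change against WT was 0.33 (limma adjusted p 0.000949) for CRISPR Control, 0.57 (adjusted p 5.91e-06) for KO 1 and 0.65 (adjusted p 4.78e-07) for KO 2, each with an SE of 0.07. Both KO lines were also above CRISPR Control, by 0.24 (adjusted p 0.0078) and 0.32 (adjusted p 0.000737). KO 2 and KO 1 did not differ past the threshold (0.08, adjusted p 0.412), although their libraries did not overlap. The 6 deficient libraries of IFNGR1 all lay above the 6 competent libraries. How many of all genes separate in this way was not counted. Deficient against competent lines gave 0.45 (SE 0.05, adjusted p 3.94e-07), in a comparison where 65.9% of all genes tested were called.

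IFNGR2 (chromosome 21, 33403413 to 33479348, plus strand), the signalling partner, had 2808, 2575 and 2717 in WT, 1052, 1075 and 1209 in CRISPR Control, 2828, 3119 and 3137 in KO 1, and 2614, 2733 and 2459 in KO 2. Relative to the WT mean the CRISPR Control mean was at a ratio of 0.412, and the CRISPR Control libraries lay far below all others. The log2 fold change of CRISPR Control against WT was -1.28 (SE 0.08, limma adjusted p 7.89e-11), and 10.7% of all genes tested had a change at least as large in that comparison. KO 1 (0.16, adjusted p 0.103) and KO 2 (-0.05, adjusted p 0.573) did not pass against WT. The KO 1 libraries nevertheless lay above those of WT, and KO 1 passed when only the lines compared were fitted (adjusted p 0.0339). Against CRISPR Control they were higher by 1.45 (adjusted p 5.94e-12) and 1.23 (adjusted p 6.21e-11). The difference of deficient against competent lines (0.70, SE 0.05, adjusted p 1.59e-09) therefore came with competent lines that did not overlap each other. KO 2 was below KO 1 (-0.22, SE 0.08, adjusted p 0.0307), a call that was lost in 7 of 22 alternatives. These were no minimum (adjusted p 0.058), equal library totals (0.234), quantile normalisation (0.174), and leaving out KO 1 replicate 2 (0.109), KO 1 replicate 3 (0.115), KO 2 replicate 1 (0.058) or KO 2 replicate 3 (0.121).

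**Figure D3:**
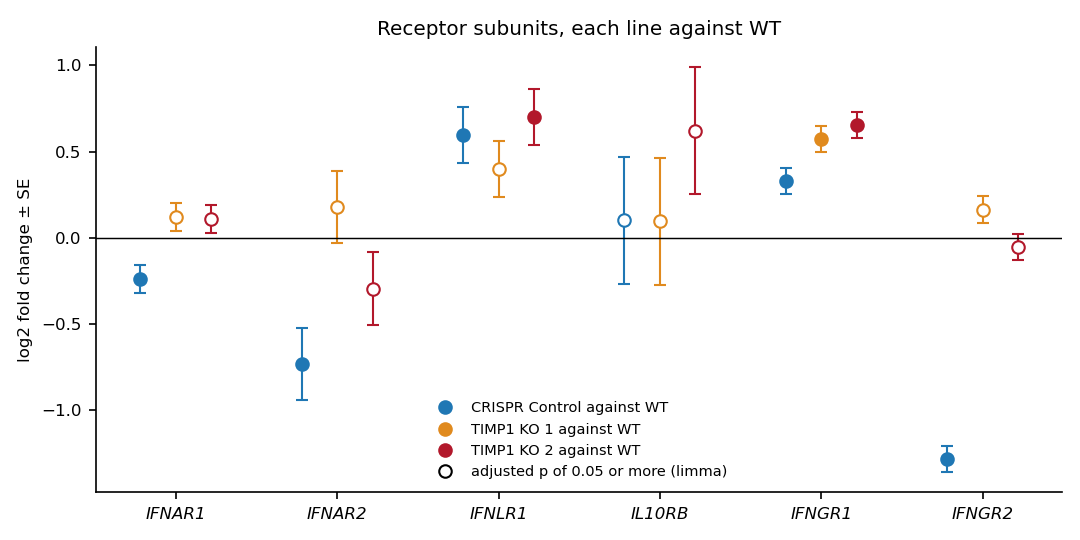
Log2 fold change of the 6 receptor subunits in CRISPR Control, KO 1 and KO 2 against the same WT libraries. Points are limma estimates and bars are 1 SE, with filled points past an adjusted p of 0.05. IFNGR2 in CRISPR Control, at -1.28, is the farthest from 0, and IFNGR1 is above 0 with a filled point in all 3 lines.

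IFNAR2, IL10RB, IFNAR1 and IFNGR2 lie side by side on chromosome 21. Within 500 kb of that block, 9 other protein-coding genes were tested. In CRISPR Control against WT, 4 of the 9 were lower and none was higher, with a median log2 fold change of -0.24 and a range from -0.43 (TMEM50B, limma adjusted p 0.000692) to 0.02, against a median of 0.01 over all genes, of which 53.4% were called. SON, a splicing cofactor, was next with -0.39 (adjusted p 0.000557). IFNGR2 (-1.28) and IFNAR2 (-0.73) lay below that range, IFNAR1 (-0.24) inside it and IL10RB (0.10) above it. TMEM50B overlaps 15.0% of the exon bases of IFNGR2 on the opposite strand, and a count without strand could not tell their reads apart there. In KO 1 against WT 1 neighbour was higher and 2 were lower, with a median of -0.08, where 35.5% of all genes were called. For KO 2, 1 was higher and 3 were lower, with a median of -0.13, where 55% of all genes were called.

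**Figure D4:**
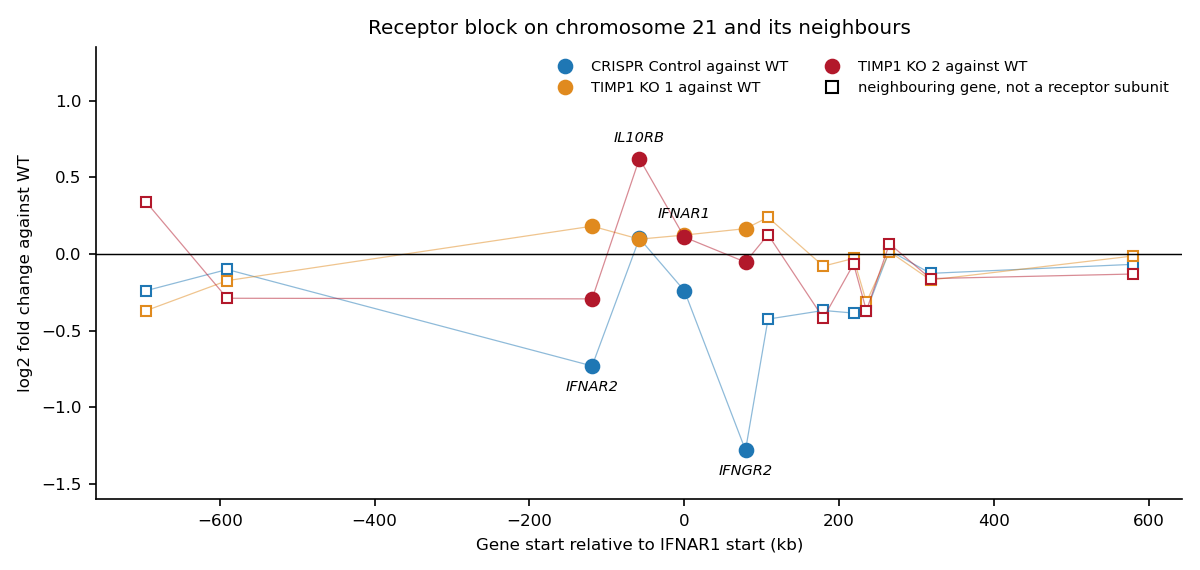
Log2 fold change against WT (vertical axis) of the 4 receptor genes on chromosome 21 (filled circles) and 9 tested neighbours (open squares), by distance of the gene start from that of IFNAR1 in kb. Lines join the genes of 1 comparison, and in CRISPR Control IFNGR2 (-1.28) and IFNAR2 (-0.73) lie below every neighbour.

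The genes whose profile over the 12 libraries was most like that of a member were found by the root mean square (RMS) difference of centred log2 values among 15978 genes. For IFNL1 they were CMPK2 (0.67), SOD3 (0.69) and PKHD1L1 (0.78). For IFNL2 they were BST2 (0.79), TBXAS1 (0.89) and NDP (0.98), and for IFNL3 BST2 (0.70), CMPK2 (0.72) and PKHD1L1 (0.73). BST2 had mean normalised counts of 14.6 (WT), 28.6 (CRISPR Control), 34.9 (KO 1) and 1711 (KO 2). For IFNGR2 they were DDB2 (0.06), ACP2 (0.08) and TCF25 (0.08), and DDB2 had means of 2509, 976, 2707 and 2373 in the same order. The other members were not ranked, since their line means spanned less than 1 on the log2 scale or, for IFNB1, were under the minimum.

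The genes around the receptors were read from lists that had been chosen with earlier results of these data known. Their counts stand beside the shares of all genes called against WT, which were 35.5% for KO 1, 55% for KO 2 and 53.4% for CRISPR Control. Of the 7 kinases and transcription factors at the receptors, 3 were higher and none lower in KO 1 than in WT, and 4 were higher and 2 lower (JAK1 and STAT3, named after their values were seen) in KO 2. In CRISPR Control 2 were higher and 5 lower. The shares of the list called were 42.9% in KO 1, 85.7% in KO 2 and 100% in CRISPR Control. IRF9, the DNA-binding part of the type I and type III complex, had 25.8 ± 5.96 (SD, n = 3 as for all lines) in WT, 14.6 ± 1.79 in the CRISPR Control line, 59.3 ± 2.37 in KO 1 and 125 ± 27.1 in KO 2. Against WT that was -0.76 in CRISPR Control (limma adjusted p 0.00995), 1.20 in KO 1 (adjusted p 0.000518) and 2.24 in KO 2 (adjusted p 1.66e-07). STAT2 followed the same order, with -0.71 (adjusted p 1.62e-07), 0.61 (adjusted p 2.64e-06) and 1.29 (adjusted p 4.1e-11). Another annotated gene overlaps 93.05% of the canonical IRF9 bases on the same strand. Reads there can be lost, so the level of IRF9 is uncertain.

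Targets of interferons showed the widest span. Of 34 targets of type I and type III interferons, 32 were tested. In KO 2 all 32 were higher than in WT, with a median log2 fold change of 4.54, against a median of -0.01 over all genes. In KO 1 27 were higher and 1 lower (OASL, named after its value was seen), with a median of 1.51. In CRISPR Control 12 were higher and 10 lower, with a median of 0.19. The shares called were 87.5% (KO 1), 100% (KO 2) and 68.8% (CRISPR Control). The KO 2 share also counts genes that reached the minimum through KO 2 alone. OAS2, which makes the activator of RNase L, had mean normalised counts of 15.1 (WT), 13.03 (CRISPR Control), 138 (KO 1) and 5153 (KO 2). MX1, an antiviral GTPase, rose against WT by 3.93 in KO 1 (limma adjusted p 7.94e-13) and 7.51 in KO 2 (adjusted p 7.55e-17), and IFI6 by 4.09 (adjusted p 7.94e-14) and 7.29 (adjusted p 1.79e-17). In CRISPR Control MX1 (0.55, adjusted p 0.00762) and IFI6 (0.56, adjusted p 0.00272) were also higher, and OAS2 was at -0.20 (adjusted p 0.392).

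Of 15 targets that lean to interferon gamma, 11 were tested, and 10 were higher in KO 2 than in WT (median 3.70), although IFNG had no read. In KO 1 4 were higher and 1 lower (IRF8, named after its value was seen), with a median of 0.46, and in CRISPR Control 3 were higher and none lower, with a median of 0.44. Called were 45.5% of the list in KO 1, 90.9% in KO 2 and 27.3% in CRISPR Control. The KO 2 share counts genes that reached the minimum through KO 2 alone, GBP5 among them. List genes under the minimum were left out, so that share is a description. CIITA overlapped WT in KO 2, with normalised counts of 10.2, 8.18 and 7.62 in WT and 10.8, 7.89 and 11.1 in KO 2. IDO1, CXCL9, HLA-DRA and HLA-DMA were under the minimum. In KO 2, CXCL9 and HLA-DRA had no read, and IDO1 had 1, 1 and 2 reads. HLA-DMA had 9.94, 16.7 and 12.1 there, against 5.66, 4.55 and 10.5 in WT. These genes were named after their values were seen. GBP2, a GTPase of the guanylate-binding family, was higher by 2.08 in KO 1 (limma adjusted p 0.00013) and 5.14 in KO 2 (adjusted p 5.48e-10). GBP4 was higher by 1.67 (adjusted p 0.0124) and 4.81 (adjusted p 1.39e-07). GBP5 reached the minimum through KO 2 alone. Its log2 fold changes of 0.59 in KO 1 and 4.72 in KO 2 are therefore a description, and no test outcome is given.

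**Figure D5:**
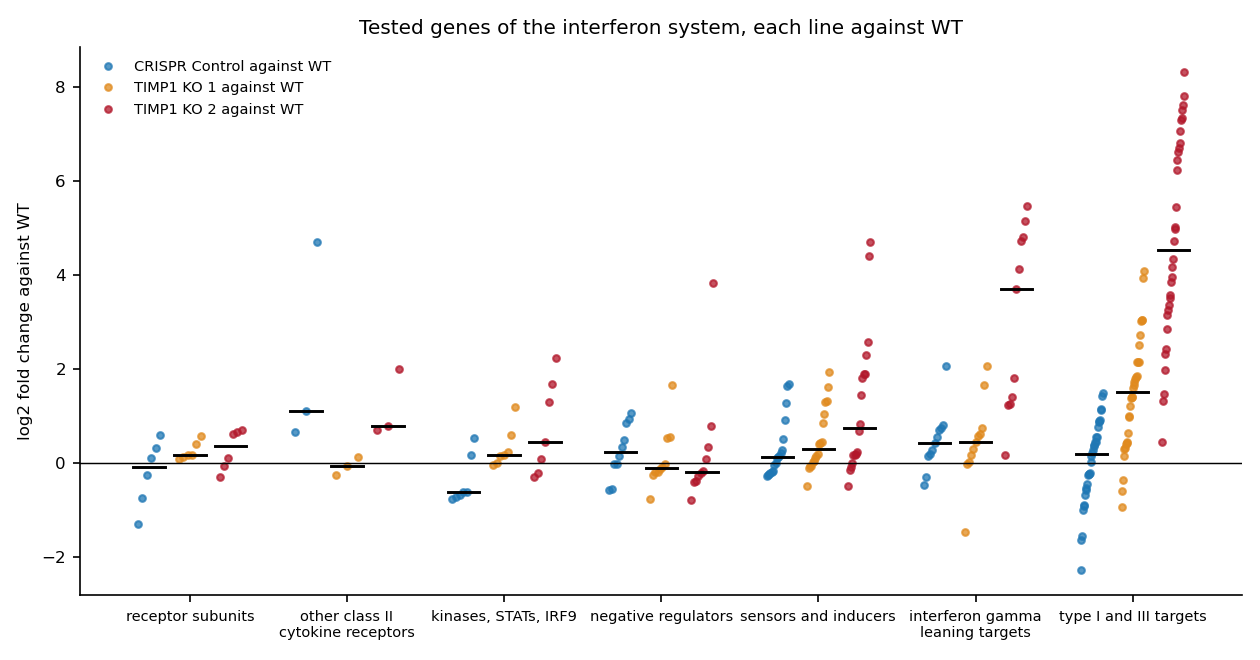
Log2 fold change against WT (vertical axis) of the tested genes of 7 lists of the interferon system. Each point is a gene in CRISPR Control, KO 1 or KO 2, and black bars are list medians. The medians of the type I and type III targets are 0.19, 1.51 and 4.54, while those of the receptor subunits are -0.07, 0.17 and 0.37.

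Among 18 sensors and inducers, which act upstream of the ligand genes, 13 were higher and 1 lower (CGAS) in KO 2 than in WT, 9 were higher and 1 lower (IRF5) in KO 1, and 7 were higher and 3 lower in CRISPR Control. CGAS and IRF5 were named after their values were seen. The share called was 77.8% in KO 2, and it was 55.6% in both KO 1 and CRISPR Control, which in CRISPR Control is close to the share of all genes. These counts and shares include TLR3, which reached the minimum through KO 2 alone, so the KO 2 share is a description. IFIH1, a sensor of long double-stranded RNA, had mean normalised counts of 140.1 (WT), 342 (CRISPR Control), 539.8 (KO 1) and 2974 (KO 2), with every line above WT (limma adjusted p 4.11e-09, 2.54e-11 and 1.44e-16). For TLR3, the endosomal sensor of double-stranded RNA, the log2 fold changes over WT were 4.70 (KO 2), 1.63 (CRISPR Control) and 1.62 (KO 1). Because TLR3 passed the minimum only through KO 2, these values are a description and no test outcome is given. DHX58 was at -0.22 in CRISPR Control (adjusted p 0.285) and higher by 1.04 (adjusted p 6.64e-05) and 2.59 (adjusted p 2.08e-10) in the KO lines.

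Of 10 negative regulators of interferon receptors, 3 were higher and 1 lower in KO 1 than in WT, 3 were higher and 3 lower in KO 2, and 4 were higher and 2 lower in CRISPR Control. These counts, 40% of the list in KO 1 and 60% in each of the other lines, were close to the shares of all genes. USP18, which binds IFNAR2 and damps type I signalling, had mean normalised counts of 112 (WT), 238 (CRISPR Control), 358.5 (KO 1) and 1619 (KO 2). Its log2 fold change against WT was 1.07 (limma adjusted p 8.88e-08), 1.67 (adjusted p 4.52e-10) and 3.84 (adjusted p 1.57e-15). PTPN1, a phosphatase that acts on Janus kinases, was lower in CRISPR Control (-0.55, adjusted p 4.37e-06) and higher in KO 1 (0.53, adjusted p 1.25e-05) and KO 2 (0.34, adjusted p 0.000679). CISH did not pass against WT in any line (adjusted p 0.0707 to 0.141), and it passed between deficient and competent lines at -1.20 (adjusted p 0.000785).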

How the data were processed

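Bulk RNA of 12 libraries was analysed, 3 from each of the WT, CRISPR Control, TIMP1 KO 1 and TIMP1 KO 2 lines, grouped by the sample titles. The authors trimmed read pairs with Cutadapt, aligned them by STAR to GRCh38, assigned them to genes by featureCounts, scaled each library by its DESeq2 size factor, and deposited the result as a signal per gene. The strand setting and annotation release of the counting are not given in the sources used here. Replicates were kept apart. In each library, 100% of the values were whole multiples of a single step within 0.01 reads, which returned the reads. The table also held 1 blank line and 4 columns of line means, which were left out.

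Members and lists were chosen with earlier results of these data known. Genes whose normalised count averaged 10 or more over all libraries (15987) were tested with limma (version 3.58.1, R 4.3.3) on log2(value + 1). The fit used 4 line means over all libraries, eBayes with a trend, two-sided tests, Benjamini-Hochberg adjustment and a threshold of 0.05. On this scale the change of low genes is understated. Scripts were tested on simulated data. Alternatives were a pseudocount of 10, a minimum of 50 or none, equal library totals, quantile normalisation, TMM factors, edgeR (version 4.0.16) and DESeq2 (version 1.42.0) on the recovered reads, a block for the replicate number, the compared lines alone, and each library left out. Ligand ratios used summed reads with exact 95% intervals. Coordinates are from GENCODE release 44 on GRCh38, which held 97.6% of the identifiers with their version and need not be the authors' release. Named genes were the members, TIMP1, the readthrough gene, other ligands with a read, the 3 genes of each list with the largest change between deficient and competent lines past the threshold, the 3 most like each member that spanned over 1 on the log2 scale, and the 2 farthest neighbours on chromosome 21. A gene that this rule names is not reported here.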

Additional observations from a re-analysis of the deposited data

Results flagged for a closer look

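For 4 members the changes of KO 2 and KO 1, each against the same WT libraries, stood apart. The log2 fold change of KO 2 against KO 1 was 3.87 for IFNL1, 5.04 for IFNL2 and 4.38 for IFNL3, which were chosen with these reads in view and reached the minimum for the test through KO 2 alone, so these values are a description and no test outcome is given. By limma it was -0.22 for IFNGR2 (adjusted p 0.0307, and 0.0165 to 0.234 over the alternatives), where KO 2 averaged 2602 ± 138 and KO 1 averaged 3028 ± 173 (SD, n = 3).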

How the results depend on the processing

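Of 1349 log2 fold changes of members under alternatives, 1282 kept their direction and their side of the threshold, 25 gained a call, 16 lost one and 26 changed sign. All 26 were past the threshold in neither fit. With equal library totals the value was 0.04152 for IFNGR2 (KO 2 against WT), 0.006608 for IL10RB (KO 1 against CRISPR Control) and 0.08927 for IFNAR1 (KO 2 against KO 1). With quantile normalisation it was 0.04573 for IFNGR2 (KO 2 against WT), 0.58 for IFNL2 and 0.08968 for IL10RB (both KO 1 against CRISPR Control), -0.11 for IFNLR1 (KO 2 against CRISPR Control) and 0.05494 for IFNAR1 (KO 2 against KO 1). With TMM factors it was 0.006625 for IL10RB (KO 1 against CRISPR Control) and 0.0002481 for IFNAR1 (KO 2 against KO 1). For the latter, edgeR gave 0.005045 and DESeq2 0.002949, and DESeq2 gave -0.002281 for IL10RB (KO 1 against WT). Without 1 library at a time, IFNAR2 (KO 1 against WT) ran from -0.0219 to 0.354, IL10RB from -0.30 to 0.48 (KO 1 against WT), from -0.29 to 0.48 (CRISPR Control against WT) and from -0.27 to 0.30 (KO 1 against CRISPR Control), IFNL2 from -0.18 to 1.51 (CRISPR Control against WT) and from -0.72 to 0.98 (KO 1 against CRISPR Control), IFNLR1 (KO 2 against CRISPR Control) from -0.0103 to 0.224, and IFNAR1 (KO 2 against KO 1) from -0.0852 to 0.0288. The cause was not tested.

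A minimum mean of 50 left 5 members to test and lowered the members called from 3 to 1 (KO 1 against WT), 5 to 2 (KO 2 against WT), 5 to 4 (KO 1 against CRISPR Control), 6 to 3 (KO 2 against CRISPR Control), 4 to 1 (KO 2 against KO 1) and 6 to 3 (deficient against competent lines). Equal library totals moved the median of all genes by up to 0.11 (KO 2 against CRISPR Control). Deviations of same-numbered libraries from their line means correlated from -0.13 to 0.16. Of 18 correlations 2 exceeded 0.1, both between CRISPR Control and KO 2 (0.16 and 0.145). With 3 libraries per line, such correlations cannot decide whether the replicate numbers pair the libraries. With a replicate block the members called were 4 for KO 1 against WT in place of 3 and 7 for deficient against competent lines in place of 6, with IFNLR1 added in both, and the other counts did not move. IFNB1, at no more than 20 reads a library, and IL10RB are the members most limited by depth. Reads of IL10RB can also be lost in exons shared with the readthrough gene.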

Other observations

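Of 6 receptors of the class II cytokine family that are not interferon receptor subunits, 3 were tested, and values of the 2 that the rule named follow. F3, which encodes tissue factor, had mean normalised counts of 8.69 ± 2.04 (SD, n = 3 as for all lines) in WT, 249 ± 16.8 in the CRISPR Control line, 8.85 ± 4.55 in KO 1 and 38.8 ± 13.4 in KO 2. Against WT its log2 fold change was 4.71 in CRISPR Control (limma adjusted p 8.46e-10), -0.06 in KO 1 (adjusted p 0.902) and 2.01 in KO 2 (adjusted p 4.69e-05). IL22RA1, the chain that pairs with IL10RB to bind interleukin 22, had 78.4 ± 7.75, 169.98 ± 20.1, 66.1 ± 11.7 and 138 ± 16.7 in the same order. It was higher than in WT in CRISPR Control (1.10, adjusted p 2.57e-05) and KO 2 (0.80, adjusted p 0.000605) and not past the threshold in KO 1 (-0.26, adjusted p 0.265). For deficient against competent lines IL22RA1 was at -0.28 (adjusted p 0.049).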
